A study of Mus musculus with 36 samples.

Results

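Ventricles of E15.5 mouse embryos in which Dll4 had been deleted from the endothelium during coronary growth were compared with wild type (WT) ventricles by RNA-seq. The mutants were Dll4 flox;Cdh5-CreERT2 embryos, named D4Cdh5-CreER in the sample labels. Their Cre recombinase depended on tamoxifen and was driven by the promoter of Cdh5, the gene of VE-cadherin, so that it was made in the endothelium of vessels and of the endocardium. Fathers were homozygous for floxed Dll4, mothers carried 1 floxed allele and the Cre, and tamoxifen was given by gavage at E12.5. WT is the only description of the other group in the sources used here, and whether those embryos carried floxed alleles or Cre, or had been exposed to tamoxifen, is not given in them. The question put to the comparison was how the heart's gene expression responds when Dll4 is taken away from endothelium at this stage. The libraries were chosen by genotype, stage and tissue: 3 mutant libraries, numbered 2, 3 and 4, and 4 WT libraries, numbered 1 to 4, together 7 of the 36 in the series. Each library was made from the ventricles of a pool of 3 embryos.

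Dll4 is a membrane-bound ligand of Notch receptors. When it binds a receptor on a neighbouring endothelial cell, the receptor is cut and its intracellular part enters the nucleus, where it joins RBPJ and switches on genes such as Hey1, Hey2 and Nrarp. In growing vessels VEGF raises Dll4 in the leading (tip) cells, Dll4 in turn holds back sprouting by their neighbours, and Dll4 to Notch signalling is needed for arterial identity. In the fetal heart Dll4 is made by the endocardium and by the arterial and capillary endothelium of the coronary vessels.

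Values are the deposited normalized counts, in which the reads of each library are scaled to its adjusted size. Those of single libraries are given in the order 2, 3, 4 for mutants and 1, 2, 3, 4 for WT. A value alone in parentheses after a gene is its log2 fold change, mutant minus WT, on the scale of log2(normalized count + 0.5). The depth recovered from them was 8262124 to 12539286 reads in genes in the mutant libraries, with library 3 the shallowest, and 10622477 to 14774561 in the WT libraries, so that 1 read was worth 0.0784 to 0.123 normalized counts in mutants and 0.0677 to 0.0958 in WT. Libraries of 1 group differed by more than sampling noise, and p-values below measure the spread between these pools of embryos. On the first principal component, which held 30.2% of the variance, the mutant libraries lay at -24.7, -5.63 and -19.6, against 11.3 to 13.9 for the WT libraries: mutant library 3 was the nearest to WT. The pools held different mixes of male and female embryos. Xist, made from the inactive X chromosome of females, stood at 725, 392 and 165 in mutants against 353, 156, 2.86 and 539 in WT, so the groups overlapped. The Y-linked gene Ddx3y stood at 0.923, 21.8 and 55.9 in mutants against 20.8, 47.4, 69.2 and 0.135 in WT, and again both groups held high and low pools. The tissue showed the markers of ventricle: Myl2, the ventricular light chain, had 3955 to 5839.5 normalized counts in mutants and 4678 to 5631 in WT, and the endothelial adhesion gene Pecam1 had 169 to 218 in mutants and 162 to 186 in WT. Alb, the liver marker, and Sftpc, the lung marker, were not among the 13897 genes of the table.

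Dll4 (ENSMUSG00000027314, chromosome 2, 119325784 to 119335962, plus strand, GRCm38) was the gene targeted. It had 8.11, 20.7 and 9.53 in the mutant libraries, against 28.0, 23.2, 25 and 28.6 in the WT libraries. Mutant libraries 2 and 4 thus kept 30.9% and 36.3% of the WT mean, while library 3 kept 79.1% and lay just under the lowest WT library. The mean was 12.8 ± 6.9 in mutants (SD, n = 3) and 26.2 ± 2.5 in WT (SD, n = 4), a log2 fold change of -1.12 ± 0.24 (SE) with a 95% interval of -1.65 to -0.60. With limma and Benjamini-Hochberg adjustment over all 13897 genes this gave an adjusted p of 0.0507, just outside the 0.05 used for calls, and an exact two-sided permutation test over the 7 libraries gave p = 0.0571, the smallest that 3 against 4 can give. Without mutant library 3 the log2 fold change was -1.52 and the adjusted p 0.000129, and without mutant library 2 they were -0.87 and 0.26, the lowest and highest adjusted p of the alternatives run. Reads were summed over the whole gene, those from any part outside the deleted stretch included, and in bulk ventricles fewer cells of a type and less RNA per cell cannot be told apart.

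**Figure D1:**
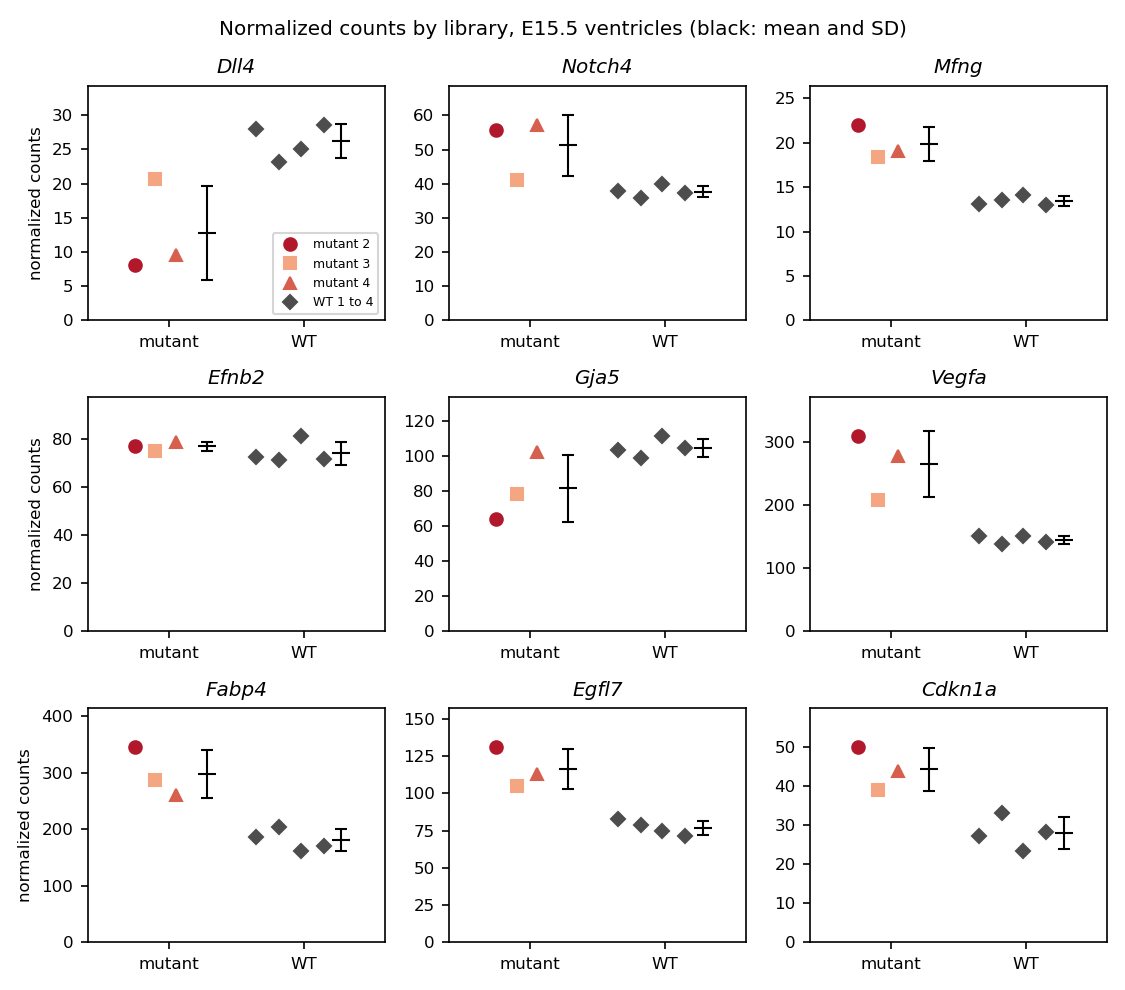
Normalized counts of 9 genes (vertical axis, linear, from 0) in each of the 3 mutant and 4 WT libraries (symbols), with the mean and SD of each group in black. Dll4 in mutant library 3 (20.7) lies close to WT (23.2 to 28.6), Vegfa, Fabp4 and Egfl7 lie above all WT libraries in each mutant library, and for Efnb2 the groups overlap.

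Across the transcriptome 131 genes rose in mutants (0.943% of the 13897 tested) and 29 fell (0.209%), with a median log2 fold change of 0.64 among those that rose and -0.67 among those that fell. In each of the 160 (1.15%) all 3 mutant libraries lay outside the range of the 4 WT libraries. That separation by itself was common, since 969 genes (6.97%) had all 3 mutant libraries above the WT range and 831 (5.98%) all 3 below it. The median log2 fold change over all genes was 0.00, and 1975 genes had an unadjusted p under 0.05. Most differences were small: 24 of the genes that rose exceeded a log2 fold change of 1, and 6 of those that fell were under -1.

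**Figure D2:**
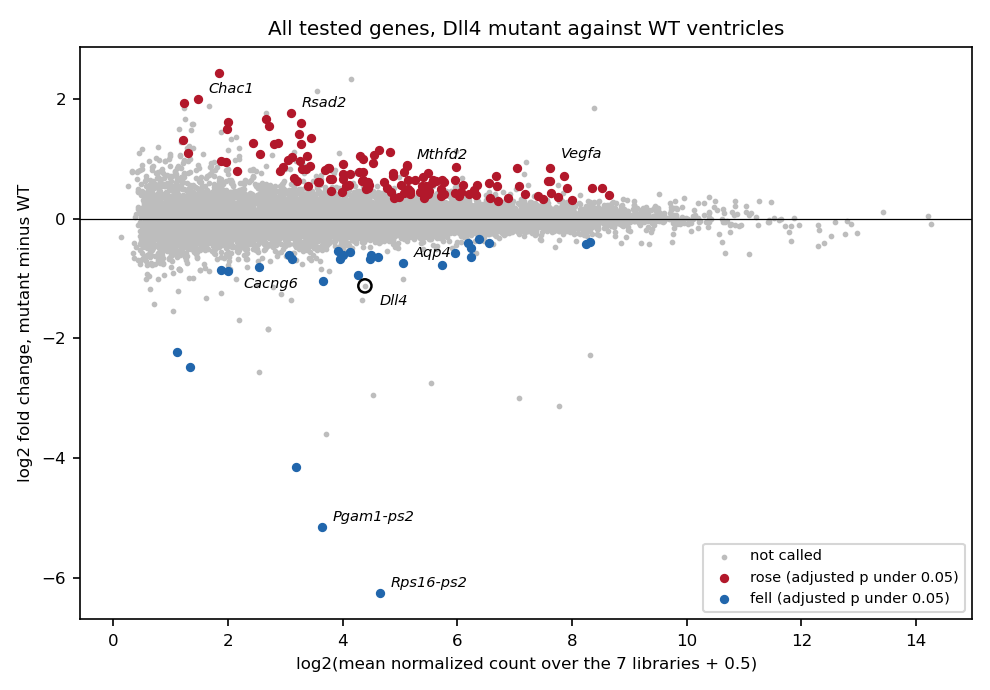
Log2 fold change, mutant minus WT (vertical axis), against the log2 mean level over the 7 libraries (horizontal axis) for all 13897 genes. Genes that rose (131) are red, genes that fell (29) blue, other genes grey, and Dll4 is circled: the rises spread over all levels, and the called falls beyond -2 are pseudogenes and 1 histone gene.

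The 3 mutant libraries did not contribute alike. Over the 131 genes that rose, the median log2 difference from the WT mean was 0.74 in mutant library 2, 0.46 in library 3 and 0.73 in library 4. Library 3, the one that kept most Dll4, was the lowest of the 3 in 111 of these genes, against 3 for library 2 and 17 for library 4. Rises over 1 on the log2 scale numbered 41 in library 2, 6 in library 3 and 33 in library 4. For the 29 genes that fell, the medians were -0.78, -0.58 and -0.61. Over all genes the libraries were more alike, with 27.3%, 27% and 27.3% of genes above the WT range in libraries 2, 3 and 4. Whether the Dll4 that remained in library 3 bears on its smaller differences was not tested. The count of calls rested on single libraries. Without mutant library 3 there were 421 rises and 153 falls, without mutant library 2 there were 2 and 4, and without mutant library 4 there were 87 and 48. Leaving out a WT library gave 42 and 9 (library 1), 41 and 9 (library 2), 6 and 5 (library 3) or 61 and 12 (library 4). With 1 shared prior variance in place of the mean-variance trend, 1 gene rose and 4 fell.

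The position of Dll4 was looked at first, because a floxed allele carries flanking DNA of its own origin. Among the 40 nearest tested genes, 20 on each side over 1.69 Mb, 2 rose and none fell (background 0.943% and 0.209%), with a median log2 fold change of -0.05. They were the nearest tested genes on either side of Dll4. Gm14207, a noncoding transcript on the minus strand (chromosome 2, 119321187 to 119326194) that overlaps the start of Dll4, had 3.74, 2.27 and 3.10 in the mutant libraries, against 0.778, 0.910, 0.811 and 1.13 in the WT libraries. Its log2 fold change was 1.31 ± 0.22 (SE), adjusted p = 0.0213. All mutant libraries exceeded all WT libraries, the opposite of Dll4 itself. Whether strand was used in counting is not given in the sources used here, so reads of Gm14207 and of the start of Dll4 cannot be told apart. The other was Chac1 (chromosome 2, 119351229 to 119354381, plus strand), an enzyme that breaks down glutathione, which is described with the stress response below.

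The gene lists used from here on were chosen with earlier results of these data known. Any contrast of a list with all genes, of which 0.943% rose and 0.209% fell, is therefore partly set by that choice. Of the Notch pathway, 22 of 24 listed genes were tested, 1 rose, none fell and the median log2 fold change was -0.01. The gene that rose was Mfng, a glycosyltransferase that modifies Notch receptors, with 22.0, 18.4 and 19.1 in the mutant libraries, against 13.2, 13.6, 14.1 and 13.0 in the WT libraries (log2 fold change 0.54 ± 0.10 (SE), adjusted p = 0.0257). Notch4, the receptor restricted to endothelium, had 55.7, 41.0 and 57.2 in mutants against 37.9, 35.9, 39.9 and 37.3 in WT, and the ligand Jag2 had 38.8, 27.7 and 36.3 in mutants against 21.4, 23.1, 22.8 and 28.4 in WT. Neither passed, at adjusted p = 0.0920 for Notch4 and 0.0888 for Jag2, although every mutant library exceeded every WT library for Notch4. None of the direct targets passed. Log2 fold changes were -0.18 for Hey1, -0.21 for Hey2, -0.12 for Heyl, 0.06 for Hes1 and -0.03 for Nrarp. Efnb2, the arterial membrane ligand ephrin-B2, had 76.9, 75.1 and 78.9 in the mutant libraries, against 72.3, 71.3, 81.2 and 71.5 in the WT libraries. Its log2 fold change was 0.06, with a 95% interval of -0.09 to 0.20 and an adjusted p of 0.769. For ventricles as a whole the interval thus holds a rise of up to 0.20 and a fall to no lower than -0.09.

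None of the 20 arterial endothelial genes passed the test in either direction, and their median was -0.03. Gja5, the arterial connexin 40 that is also made in trabecular and conduction muscle, had 64.3, 78.3 and 102 in the mutant libraries, against 103, 99.1, 112 and 105 in the WT libraries (log2 fold change -0.38, adjusted p = 0.173). Libraries 2 and 3 lay below all WT libraries and library 4 within their range. Vegfc, a VEGF family ligand, had a log2 fold change of -0.49 (adjusted p = 0.0878) and the transcription factor Sox7 one of 0.29 (adjusted p = 0.0677). The arterial markers Gja4 (-0.06), Sox17 (-0.10) and the chemokine receptor Cxcr4 (-0.16) were near 0. The 12 endocardial genes gave no call either, with 10 negative log2 fold changes and a median of -0.11.

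Part of the pan-endothelial list rose. Of 25 pan-endothelial genes 8 rose, none fell and 24 had a positive log2 fold change, against 49.8% of all genes, with a median of 0.29. The list median was 0.44, 0.17 and 0.39 in mutant libraries 2, 3 and 4. Egfl7, a secreted protein of endothelial cells, had 131, 105 and 113 in the mutant libraries, against 82.7, 78.8, 74.9 and 71.4 in the WT libraries (log2 fold change 0.59 ± 0.08 (SE), adjusted p = 0.0157). The others that rose were the transcription factors Bcl6b (0.55) and Erg (0.50), the adhesion genes Icam2 (0.50) and Esam (0.41), the sialomucin Emcn (0.41), the GTPase Gimap4 (0.47) and the exchange factor Arhgef15 (0.44). Cdh5, whose promoter drove the Cre, had 373, 319 and 375 in mutants against 279, 283, 296 and 306 in WT, above the WT range in each library but not past the test (adjusted p = 0.0888). Pecam1 (log2 fold change 0.18) and the angiopoietin receptor Tek (-0.04) did not pass. The count of 8 was 0 without mutant library 2 or without WT library 3, 16 without mutant library 3, 5 without mutant library 4, and 3, 4 and 4 without WT library 1, 2 or 4.

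Capillary and tip cell genes gave 6 rises among 17 tested, no fall and a median of 0.39 (0.53, 0.22 and 0.50 in mutant libraries 2, 3 and 4). Kcne3, a potassium channel subunit known as a tip cell marker, had 19.8, 8.30 and 17.9 in the mutant libraries, against 5.24, 5.22, 3.54 and 3.93 in the WT libraries (log2 fold change 1.59 ± 0.26 (SE), adjusted p = 0.0179). Plaur, the urokinase receptor, had 13.5, 8.55 and 13.7 in mutants against 6.73, 5.51, 5.08 and 4.65 in WT, and its ligand Plau, which cuts plasminogen, had 21.9, 18.1 and 24.6 in mutants against 9.57, 12.2, 13.5 and 9.80 in WT. Both rose, with log2 fold changes of 1.03 and 0.91, but Plau is from the plasminogen and complement list and not among the 6. The matrix gene Vwa1 (0.84), the mural cell attractant Pdgfb (0.64), the apelin receptor Aplnr (0.45) and the surface mucin Cd34 (0.34) also rose. Apln, the ligand of Aplnr, had 47.2, 31.4 and 50.2 in mutants against 26.7, 25.9, 26.2 and 29.2 in WT and an adjusted p of 0.0523. Esm1, a classical tip cell gene, had a log2 fold change of 0.14 (adjusted p = 0.846). Of 7 venous genes 3 rose (Aplnr, Emcn and the VEGF-C receptor Flt4, 0.65), and of 7 lymphatic genes 2 (Flt4 and Clec1b, best known as a platelet receptor). The lymphatic list as a whole did not rise, with 3 positive and 4 negative log2 fold changes and a median of -0.09. The count of 6 was 0 without mutant library 2 or WT library 3, 10 without mutant library 3 and 2 without WT library 2.

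The capillary genes for fatty acid uptake rose in 6 of 13 cases, with none falling and a median of 0.39. Fabp4, the fatty acid binding protein of capillary endothelium, had 345, 286 and 261 in the mutant libraries, against 187, 204, 161 and 171 in the WT libraries. The lowest mutant library, here library 4, exceeded the highest WT library. The log2 fold change was 0.71 ± 0.10 (SE), adjusted p = 0.0162. Gpihbp1, which holds lipoprotein lipase on the capillary wall, had 27.1, 16.7 and 23.7 in mutants against 12.6, 14.3, 13 and 12.7 in WT. Its log2 fold change was 0.74, beside 0.78 for the lipase inhibitor Angptl4, 0.66 for the endothelial receptor Cd300lg, 0.43 for the binding protein Fabp5 and 0.39 for the caveolar coat gene Cav1. Without mutant library 2 none of the 6 passed, without WT library 3 1 passed, and without mutant library 3 the list gave 7. Without WT libraries 1 and 2 it gave 3 and 2.

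**Figure D3:**
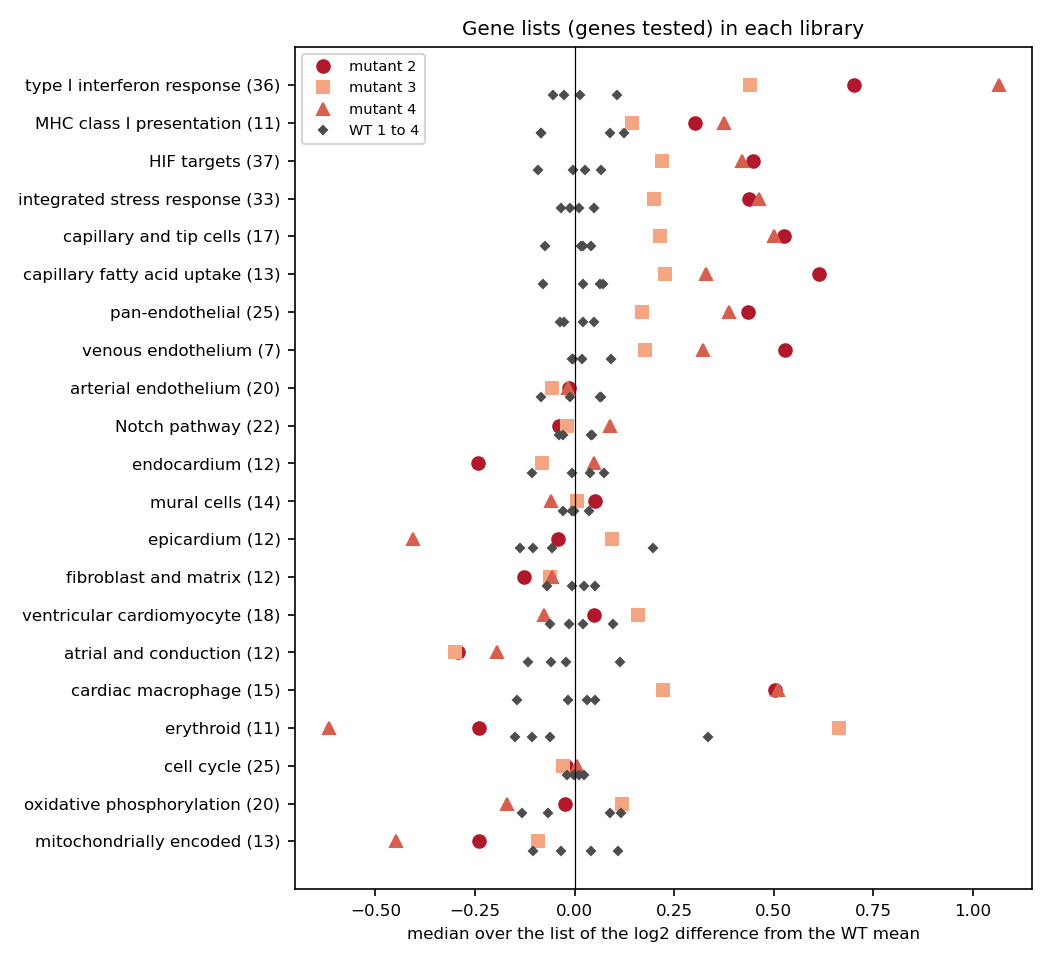
Median log2 difference from the WT mean (horizontal axis) over the tested members of 21 gene lists (rows, with their number), 1 symbol per library. Interferon, HIF target, stress response, capillary, venous and pan-endothelial lists are above 0 in all 3 mutant libraries, least in library 3 (for the interferon list 0.70, 0.44 and 1.06), while Notch, arterial and ventricular muscle lists lie around 0.

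In the VEGF and angiopoietin axis 2 of 14 genes rose and none fell (median 0.16). Vegfa, the main growth factor of blood vessels and in the heart made largely by muscle, had 309, 207 and 278 in the mutant libraries, against 151, 138, 150.3 and 141 in the WT libraries. Even mutant library 3, the lowest of the mutants, exceeded the highest WT library. The log2 fold change was 0.85 ± 0.11 (SE) (95% interval 0.61 to 1.09, adjusted p = 0.0157). Flt4 was the other gene that rose. The remaining VEGF receptors and co-receptors had positive log2 fold changes that did not pass: Nrp2 0.52 (adjusted p = 0.0766), Flt1 0.56 (0.118) and Kdr 0.39 (0.0935). Angpt1, the ligand of Tek, stood at -0.53 (adjusted p = 0.0897) and Vegfb at -0.22.

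Vegfa is also a target of the hypoxia inducible factors (HIF), transcription factors that are stable when oxygen is low. Of 37 listed HIF targets 13 rose (0.943% of all genes did), none fell and 36 had a positive log2 fold change. Their median was 0.40 against 0.00 over all genes, a contrast partly set by how the list was chosen. The list median was 0.45, 0.22 and 0.42 in mutant libraries 2, 3 and 4. Egln3 and Egln1, prolyl hydroxylases that mark HIF for destruction and are themselves HIF targets, had 103, 60.3 and 91.7 in mutants against 43.0, 46.8, 37.2 and 56.6 in WT (Egln3) and 263, 226 and 257 in mutants against 191, 201, 180.2 and 199.6 in WT (Egln1). Both rose, with log2 fold changes of 0.86 and 0.36. Genes of glycolysis were the phosphofructokinase Pfkp (0.51) and the lactate exporter Slc16a3 (0.63). Mitochondrial and redox genes were the mitophagy receptor Bnip3 (0.52), Higd1a (0.40) and the haem oxygenase Hmox1 (0.64). The transcriptional repressor Bhlhe40 (0.63) and Angptl4 rose as well. Enzymes that hydroxylate collagen made up the rest: P4ha1 (0.56), P4ha2 (0.64) and Plod1 (0.55), the 3 that rose among 10 collagen crosslinking genes. The count of 13 became 0 without mutant library 2, 22 without mutant library 3, 6 without mutant library 4, and 4, 2, 2 and 8 without WT libraries 1, 2, 3 and 4.

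Several of the 15 largest rises belonged to the integrated stress response (Chac1, Slc7a3 and Trib3) or to the interferon response (Rsad2, Ifi44, Oasl2 and Rtp4). The integrated stress response is switched on through ATF4 when amino acids are short, haem is lacking or proteins misfold, and it raises enzymes that make and import amino acids. Of 33 listed genes, also chosen with earlier results known, 10 rose (0.943% of all genes did), none fell and 29 were positive. Their median was 0.32 (0.44, 0.20 and 0.46 in mutant libraries 2, 3 and 4). Chac1 had 6.46, 2.40 and 4.51 in the mutant libraries, against 0.846, 0.527, 0.555 and 0.767 in the WT libraries, the largest rise of any named protein-coding gene (log2 fold change 2.0 ± 0.29 (SE), adjusted p = 0.0162). Trib3, a pseudokinase that feeds back on ATF4, had 13.5, 5.35 and 11.4 in mutants against 2.74, 2.73, 2.43 and 2.57 in WT (1.67), and Slc7a3, a transporter of cationic amino acids, had 5.10, 2.15 and 3.57 in mutants against 0.981, 0.335, 0.384 and 0.497 in WT (1.94). In all 3 genes mutant library 3 lay between WT and the other mutant libraries. Enzymes of serine, one-carbon and asparagine synthesis followed. Mthfd2, the mitochondrial folate enzyme, had 54.0, 38.9 and 47.3 in the mutant libraries, against 26.8, 24.2, 24.7 and 23.2 in the WT libraries, and its adjusted p of 0.00896 (log2 fold change 0.89) was the smallest of the named genes that rose. Asns, which makes asparagine, rose by 1.07 on the log2 scale, the glycine enzyme Shmt2 by 0.55 and the seryl tRNA synthetase Sars by 0.34. The transcription factors Ddit3 (0.61) and Atf5 (0.62) and the secreted glycoprotein Stc2 (0.99) completed the group. Of the 10, Mthfd2 alone passed without mutant library 2 and without WT library 3, against 16 list members without mutant library 3.

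The interferon list had the largest median of the 38 lists. Interferon bound to its receptor activates transcription factors that switch on antiviral genes. Of 36 listed genes, also chosen with earlier results known, 15 rose (0.943% of all genes did), none fell and all 36 had a positive log2 fold change. Their median was 0.80 (0.70, 0.44 and 1.06 in mutant libraries 2, 3 and 4, here with library 4 the highest). Rsad2, the antiviral enzyme viperin, had 13.8, 8.55 and 19.9 in the mutant libraries, against 4.50, 4.07, 3.11 and 2.84 in the WT libraries (log2 fold change 1.76 ± 0.24 (SE), adjusted p = 0.0157). Ifitm3, a membrane protein that blocks virus entry, had 41.5, 29.9 and 49.7 in mutants against 23.5, 16.9, 17.3 and 15.2 in WT (1.11). Others were Ifi44 (1.61), the synthetase-like Oasl2 (1.41), the chaperone Rtp4 (1.24), Xaf1 (1.07), the tether Bst2 (1.04), the kinase Cmpk2 (0.97), Helz2 (0.93), Parp14 (0.89), Samd9l (0.85), the GTPase Irgm1 (0.66), the lectin Lgals9 (0.62) and Uba7, the activating enzyme of ISG15 (0.56). Isg15 itself had 5.39, 3.26 and 7.64 in mutants against 2.81, 1.49, 2.01 and 2.12 in WT (adjusted p = 0.0639), and Irf7, the amplifier of the response, had 5.29, 3.26 and 10.8 in mutants against 2.33, 2.44, 2.94 and 1.49 in WT (adjusted p = 0.116). In both of these library 4 was the highest mutant library and the spread among mutants was wide. The summed level of the list was 589, 454 and 705 normalized counts in mutants, against 379, 339, 356 and 348 in WT. Macrophage genes, given below, were also highest in mutant libraries 2 and 4, and their part in this difference was not tested. The 15 calls became 0 without mutant library 2 or WT library 3, 26 without mutant library 3, 5 without mutant library 4, and 4, 3 and 5 without WT libraries 1, 2 and 4. Of 11 genes of MHC class I presentation, which interferon also raises, 3 rose: B2m (0.30), H2-K1 (0.57) and H2-D1 (0.43), whose near-identical family members can share reads. These 3 calls became 0 without mutant library 2, mutant library 4 or any 1 of the WT libraries, and 4 without mutant library 3.

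Promoter windows of 4 of these genes are shown, because each response has a known element that can be looked for in them. They are RefSeq sequence of GRCm38.p6, 250 bases before to 50 after the start of the gene, 5′ to 3′ on the gene's strand, and capitals mark matches, on either strand, to the core of the interferon-stimulated response element (TTTC, any 2 bases, TTTC) in Rsad2 and Ifitm3 or to TGATGNAA (the core of the element bound by ATF4 with its partners) in Chac1 and Trib3.
Rsad2, chr12:26456403-26456702, minus strand: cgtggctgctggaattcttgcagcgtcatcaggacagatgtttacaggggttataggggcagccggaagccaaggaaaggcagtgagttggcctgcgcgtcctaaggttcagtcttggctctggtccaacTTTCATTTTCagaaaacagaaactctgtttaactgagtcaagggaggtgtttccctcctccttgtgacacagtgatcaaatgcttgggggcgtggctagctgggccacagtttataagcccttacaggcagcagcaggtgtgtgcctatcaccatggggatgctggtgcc
Ifitm3, chr7:141010695-141010994, minus strand: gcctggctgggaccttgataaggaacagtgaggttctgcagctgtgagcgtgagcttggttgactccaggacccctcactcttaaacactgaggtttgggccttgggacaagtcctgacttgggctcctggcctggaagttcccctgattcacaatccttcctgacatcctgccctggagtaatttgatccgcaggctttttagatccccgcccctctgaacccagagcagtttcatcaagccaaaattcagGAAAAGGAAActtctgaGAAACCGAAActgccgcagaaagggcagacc
Chac1, chr2:119350992-119351291, plus strand: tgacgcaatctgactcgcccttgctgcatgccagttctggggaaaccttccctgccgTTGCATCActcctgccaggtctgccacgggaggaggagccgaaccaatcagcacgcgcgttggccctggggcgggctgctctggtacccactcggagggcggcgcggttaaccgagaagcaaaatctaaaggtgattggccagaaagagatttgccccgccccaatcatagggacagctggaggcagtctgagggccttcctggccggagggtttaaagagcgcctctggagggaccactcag
Trib3, chr2:152344011-152344310, minus strand: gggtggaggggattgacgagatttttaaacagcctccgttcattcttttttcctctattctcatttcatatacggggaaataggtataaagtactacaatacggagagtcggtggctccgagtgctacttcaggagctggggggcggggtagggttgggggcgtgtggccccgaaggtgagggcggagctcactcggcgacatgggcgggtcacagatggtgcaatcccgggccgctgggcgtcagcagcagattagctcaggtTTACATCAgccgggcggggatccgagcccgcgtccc
Of the interferon list, 28 genes had a window and 13 of them held the response element core, among them 5 of the 12 that rose and had a window (Bst2, Ifitm3, Irgm1, Lgals9 and Rsad2), against 3.44% of all 32851 windows. Of the stress response list, 27 genes had a window and 9 of them held TGATGNAA, against 3.97% of all windows. Among them were 3 of the 9 that rose and had a window (Asns, Chac1 and Trib3). A gene counted if any of its windows matched, whereas the shares of all windows count single windows. The lists were drawn up from genes known for these responses, so the share of members with the element describes the lists and not the mutants.

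**Figure D4:**
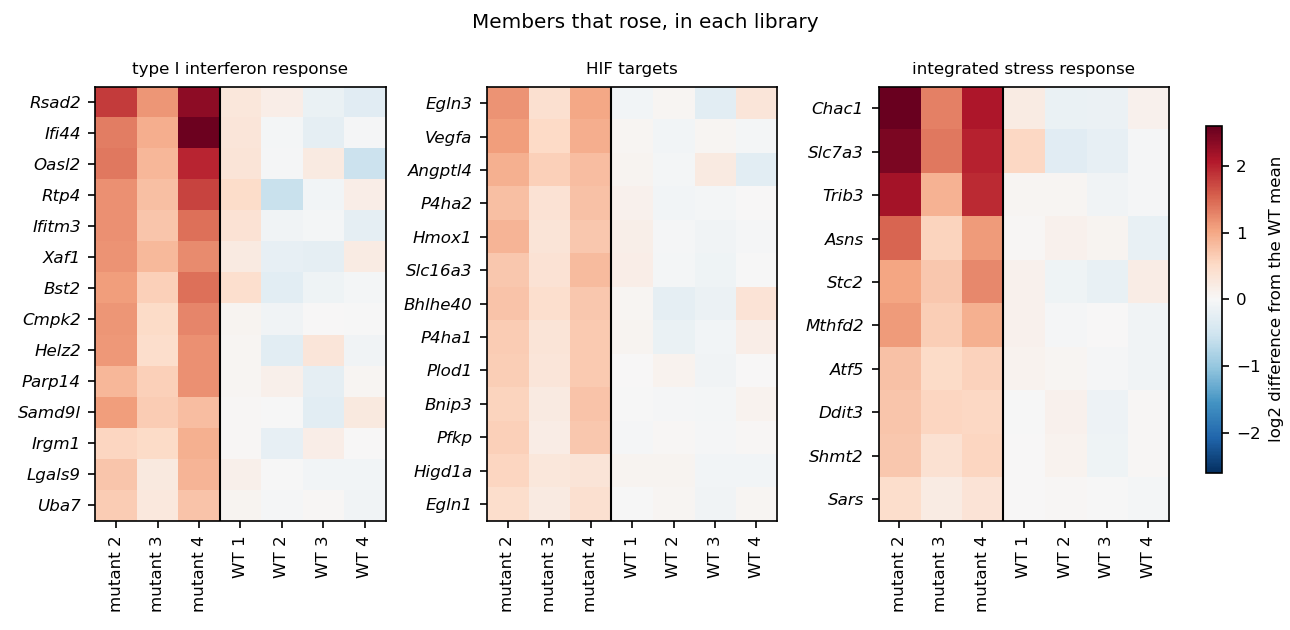
Log2 difference from the WT mean (colour) in each of the 7 libraries (columns, mutants on the left) for the members that rose in the interferon (14 of the 15), HIF target (13) and integrated stress response (10) lists (rows). Mutant library 3 is paler than libraries 2 and 4 in most rows, and all 3 mutant libraries exceed the WT libraries in each row.

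Other stress and growth genes moved in smaller numbers. The metallothioneins Mt2 and Mt1, which bind zinc and copper, rose, with 36.2, 26.9 and 45.3 in mutants against 16.1, 17.9, 12.9 and 15.9 in WT for Mt2 (1.15) and a log2 fold change of 0.71 for Mt1. Cdkn1a, the cell cycle inhibitor p21, had 49.9, 38.9 and 43.7 in the mutant libraries, against 27.2, 33.1, 23.4 and 28.1 in the WT libraries (log2 fold change 0.65 ± 0.12 (SE), adjusted p = 0.0254). It was the 1 gene that rose among 13 p53 targets, whose median was 0.03, and among 25 cell cycle genes none rose, 1 fell (the histone H2afx, -0.40) and the median was -0.03. Of 18 immediate early genes 3 rose: Fos (0.79), Maff (0.67) and the ERK phosphatase Dusp6 (0.46). That count was 0 without mutant library 2 or 4 or WT library 1, 3 or 4, 1 without WT library 2 and 5 without mutant library 3. The polyamine enzymes Odc1 (0.64) and Smox (0.44) rose among 8, and the nucleolar genes Fbl (0.47) and Rrs1 (0.43) among 15 of ribosome biogenesis. No heat shock gene among 9 passed. Complement C3 rose (14.1, 8.05 and 9.76 in mutants against 4.09, 4.65, 3.80 and 3.66 in WT, log2 fold change 1.26), as did the adenosine receptor Adora2a (0.79), the nicotinamide riboside kinase Nmrk2 (1.34), the glutamate transporter Slc1a2 (1.5) and Ackr2, a chemokine scavenging receptor (1.27). Gap43, a growth cone protein and 1 of 5 neural genes, also rose (0.71).

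Blood and immune cell genes were examined because several of the lists above include genes that leukocytes express. Of 15 cardiac macrophage genes none passed, yet 14 were positive with a median of 0.39, and their summed level was 181, 154 and 196 normalized counts in mutants, against 154, 146, 141 and 126 in WT. All 3 mutant libraries were above the WT libraries, library 3 only just. The defining macrophage markers Csf1r (30.7, 28.8 and 37.0 in mutants against 28.5, 24.3, 28.6 and 23 in WT) and C1qa (13.9, 10.8 and 13.0 in mutants against 9.98, 8.96, 8.83 and 8.17 in WT) were present in each library. Of 6 myeloid genes 3 rose, the actin regulator Coro1a (0.80), the kinase Lyn (0.36) and the transcription factor Irf8 (0.47), and the summed level of the 6 was 69.9, 64.9 and 68.7 in mutants, against 48.7, 48.5, 46.5 and 46.7 in WT. The myeloid count was 0 without mutant library 2 or 4 or WT library 1, 3 or 4, 1 without WT library 2 and 3 without mutant library 3. Of 6 platelet genes 2 rose, Clec1b (15.1, 6.33 and 9.06 in mutants against 3.42, 3.02, 2.18 and 3.30 in WT) and the thrombin receptor F2rl3 (1.09), while Pf4, the defining platelet chemokine, had a log2 fold change of 0.21. The part of leukocytes in the interferon, MHC and complement results was not tested. Red cell genes did not separate the groups: the median of the 11 erythroid genes was -0.24, 0.66 and -0.62 in mutant libraries 2, 3 and 4, and Slc4a1 was the one that rose (0.75).

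Muscle and stromal genes gave few calls. Of 18 ventricular cardiomyocyte genes 2 rose and none fell, with a median of 0.01. These were Myom2, a protein of the sarcomeric M-band (213, 133 and 186 in mutants against 101, 105, 80.9 and 103 in WT, log2 fold change 0.85), and Xirp2, an actin-binding protein of the intercalated disc (18.8, 9.28 and 14.2 in mutants against 4.03, 6.66, 5.33 and 6.0 in WT, log2 fold change 1.25). Nppb, the stress-induced natriuretic peptide, had 317, 156 and 148 in mutants against 104, 103, 105 and 92 in WT, at an adjusted p of 0.0523. None of 14 mural cell genes (median -0.05), 12 fibroblast and matrix genes (-0.06) or 12 atrial and conduction genes (-0.23) passed. Negative log2 fold changes were found in 10, 10 and 11 of them. The atrial and conduction medians were -0.29, -0.30 and -0.19 in mutant libraries 2, 3 and 4. The pericyte gene Rgs5 had a log2 fold change of -0.58 (adjusted p = 0.142). Of 12 epicardial genes 2 rose, the keratin Krt19 (0.77) and the transcription factor Wt1 (0.51), although the list's median was -0.16. The 13 protein genes of the mitochondrial genome all had negative log2 fold changes (median -0.26), but none passed, and their medians by mutant library were -0.24, -0.09 and -0.45. Of 20 nuclear genes of oxidative phosphorylation 1 fell, the complex I subunit Ndufb2 (-0.49).

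Fewer genes fell, and 2 of the 29 were on any of the 38 lists, which hold 491 of the 13897 genes tested. The 87 listed genes among the 131 that rose are no contrast to this, as the lists were chosen with earlier results of these data known. Aqp4, a water channel, had 22.2, 24.9 and 23.7 in the mutant libraries, against 37.5, 39.0, 41.6 and 40.6 in the WT libraries. Pseudogenes aside, it had the smallest adjusted p of the named genes that fell (log2 fold change -0.74 ± 0.08 (SE), adjusted p = 0.00319). Cacng6, a calcium channel subunit, had 5.88, 9.28 and 6.94 in mutants against 18.4, 16.9, 12.4 and 14.9 in WT (-1.05), and Kcnn2, a calcium-activated potassium channel, had 10.6, 12.48 and 12.7 in mutants against 17.8, 20.2, 17.3 and 17.9 in WT (-0.60). In all 3 genes every mutant library lay below every WT library, and library 3 was the highest mutant library for Aqp4 and Cacng6. The thiamine transporter Slc19a3 (-0.87), the sialyltransferase St8sia2 (-0.86), the GABA transaminase Abat (-0.56), the cadherin Cdh20 (-0.68), the kinase anchor Sphkap (-0.63), the tubulin polyglutamylase subunit Tpgs1 (-0.67), Gtsf1 (-0.81), Ctxn1 (-0.68), Fam214a (-0.61), Wdr31 (-0.61) and the synaptic adhesion gene Slitrk5 (-0.55) also fell.

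The deepest falls were in genes whose reads can be shared with near-identical copies, and the pseudogenes among them were singled out after their values were seen. Hist2h2aa1, a core histone gene with closely matching copies, had 0.0486, 0.307 and 0.0392 in the mutant libraries, against 0.643, 4.65, 3.46 and 2.48 in the WT libraries. The processed pseudogenes Rps16-ps2 and Pgam1-ps2 had 0 reads in all 3 mutant libraries, against 317 to 668 reads (Rps16-ps2) and 122 to 417 reads (Pgam1-ps2) in WT, so their mean was at least 145-fold and at least 70.4-fold lower in mutants, with a floor of 3 reads per mutant library. Their adjusted p in the limma fit, 6.0e-08 for Rps16-ps2 and 1.2e-05 for Pgam1-ps2, was smaller than that of Aqp4. Gm10709 and Gm10157, also processed pseudogenes, had at most 2 reads in a mutant library. In the other direction the pseudogene Gm2260 had 76, 28 and 92 reads in mutants and 10, 0, 23 and 6 in WT. Genes that were on in some libraries and near 0 in others occurred within a group as well: Tom1 had 39.1, 0.0615 and 0.118 in the mutant libraries, against 40.6, 39.2, 38.7 and 1.31 in the WT libraries (adjusted p = 0.373). How the counting divides reads between a gene and its copies, or whether the embryos differed in DNA at these loci, was not tested.

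The differences were set beside those of another 2 experiments of the series that changed Dll4, each with its own WT libraries, by testing the difference between the within-experiment differences. Each of the 2 was fitted together with the Dll4 flox;Cdh5-CreERT2 libraries, with variances pooled over both. Calls given for the other experiment come from that joint fit. Dll4 GOF;Tie2-Cre embryos, which carry a transgene for more Dll4 in endothelium, were sampled as E15.5 ventricles (3 mutant and 4 WT libraries). There Dll4 had 40, 38.5 and 42.7 in mutants, against 33.2, 32.3, 31.7 and 35.2 in WT. Of 13562 genes in both tables, 34 (0.251%) had a higher and 10 (0.0737%) a lower difference in Dll4 flox;Cdh5-CreERT2 ventricles than with the gain of function (0.324% together). In the gain of function itself 0 genes were called. The 34 included 31 of the 127 genes that rose after Dll4 loss and were in both tables. That overlap is partly built in, because the same Dll4 loss libraries gave the rises and entered the test. In the gain of function the median log2 fold change of the 127 was 0.00, with 62 positive. In these comparisons a value in parentheses is the difference between the log2 fold changes, Dll4 flox;Cdh5-CreERT2 minus the other experiment. Dll4 itself (-1.41, adjusted p = 0.0439) and Fabp4 (0.91, adjusted p = 0.00718) differed, as did Egfl7 (0.58), Flt4 (0.75), Kcne3 (1.65) and Rsad2 (1.82). Vegfa did not pass (0.72, adjusted p = 0.189). The count of 34 and 10 was 334 and 127 without mutant library 3, 1 and 1 without mutant library 2, 11 and 7 without mutant library 4, and 13 and 1, 12 and 2, 12 and 2 and 19 and 5 without WT libraries 1, 2, 3 and 4.

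Dll4 flox;Nfatc1-Cre embryos had Cre in endothelium of the sinus venosus, in the endocardium and in vessels derived from them. They were sampled as whole hearts at E12.5 (2 mutant and 4 WT libraries of 4 hearts each), so that driver, stage and tissue differ together and cannot be told apart. Dll4 had 1.53 and 1.29 normalized counts in those mutants, against 15.52, 17.8, 13.2 and 14.3 in their WT. Of the 131 genes that rose in the E15.5 ventricles, 122 had a positive log2 fold change in the E12.5 hearts, with a median of 0.49, and 56 also rose there, which is 42.7% of the 131 and 19.4% of the 288 that rose at E12.5 (2.13% of 13536 genes). The count of 56 is not independent of the choice of the 131, since the pooled variances include the ventricle libraries that picked them. Of 25 genes that fell at E15.5 and were in both tables, 1 fell at E12.5. The tested difference was higher at E15.5 for 17 genes (0.126%) and lower for 22 (0.163%), or 0.288% together. Mt2 (-3.22), Mt1 (-2.20) and Bhlhe40 (-1.54) had lower log2 fold changes in the E15.5 ventricles than in the E12.5 hearts, and Xirp2 (2.18) and Mthfd2 (0.75) higher ones. No test is read for Dll4 itself, since some E12.5 mutant samples had been dropped by the study partly for their Dll4 level, while E15.5 mutant library 3 was kept. That choice, which also rested on how samples clustered, bears on the other E12.5 values too, to an extent that was not tested. The counts of 17 and 22 were 9 and 15, 112 and 66 and 13 and 22 without mutant libraries 2, 3 and 4, and 11 and 14, 7 and 14, 10 and 14 and 13 and 11 without WT libraries 1, 2, 3 and 4 of the E15.5 ventricles.

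**Figure D5:**
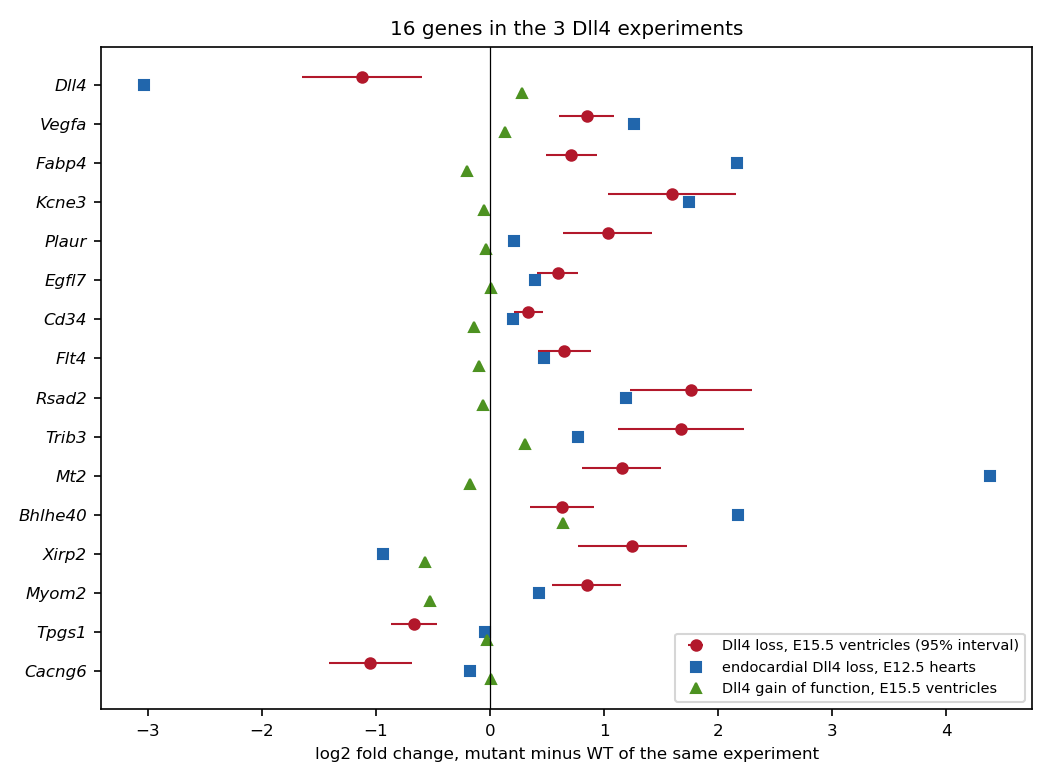
Log2 fold change, mutant minus WT of the same experiment (horizontal axis), of 16 genes (rows) in Dll4 flox;Cdh5-CreERT2 E15.5 ventricles (circles, with 95% interval), Dll4 flox;Nfatc1-Cre E12.5 hearts (squares) and Dll4 GOF;Tie2-Cre E15.5 ventricles (triangles). Vegfa, Kcne3 and Egfl7 lie to the right in both experiments with Dll4 loss and near 0 in the gain of function, while Mt2 and Bhlhe40 lie farther right at E12.5 and Xirp2 lies on opposite sides in the experiments with Dll4 loss.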

How the data were processed

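Per the labels and the study's methods, RNA of ventricle pools was sequenced (CASAVA 1.8.2), adapters were trimmed with cutadapt 1.6, reads under 30 bases were dropped and genes were quantified with RSEM (1.2.3 in the submitters’ processing notes) on GRCm38 (Ensembl 76). The deposited values are normalized counts, treated here as a signal: the authors scaled each library's estimated counts to an adjusted library size. Every value equals a whole count plus 0.5, divided by 1 factor per library (100% within 0.01 of whole), so depths were recovered. Log2(value + 0.5) was tested with limma 3.58.1 (mean-variance trend, Benjamini-Hochberg over 13897 genes, adjusted p under 0.05, R 4.3.3); the filter (at least 1 normalized count in 3 libraries) removed 0 genes. Count models on the recovered reads (edgeR 4.0.16, DESeq2 1.42.0) were alternatives. The fit was also run on counts simulated with a spread set by the mean-variance trend, so that run cannot check the trend itself. A fold change on this scale understates the change of low genes. Annotation matched 13812 genes.

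The genes named are Dll4, Vegfa, Cdkn1a, Efnb2 and Fabp4, the 15 largest rises and 15 largest falls among called genes with all 3 mutant libraries outside the WT range (no pseudogenes or gene models), the called members of each list and up to 4 members with the smallest p in each, with others named after their values were seen. The members and lists were chosen with earlier results of these data known. A list is given by its counts and median, with no set test. The values of 1 gene of the interferon list are not reported here.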

Additional observations from a re-analysis of the deposited data

Results flagged for a closer look

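In 6 of the 184 named genes 1 WT library lay apart from the other WT libraries, where chance gives about 1 in 20. WT library 3 was high for Efnb2 (81.2 normalized counts) and low for Myom2 (80.9), WT library 2 was high for Gpihbp1 (14.3) and low for Adgrg6 (28.4) and Srm (29.5), and WT library 4 was low for Cdh20 (9.16). The groups of Myom2, Gpihbp1 and Cdh20 did not overlap with these libraries included.

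For 26 named genes the log2 difference between mutant and WT ventricles differed from that of the gain of function at the same stage. It was lower for Dll4 (-1.41), St8sia2 (-1.21), Gtsf1 (-1.18), Cacng6 (-1.06), Ctxn1 (-0.70) and Tpgs1 (-0.64). Among endothelial genes it was higher for Bcl6b (0.47), Cd34 (0.47), Cav1 (0.51), Erg (0.57), Egfl7 (0.58), Gimap4 (0.67), Flt4 (0.75), Aplnr (0.90), Fabp4 (0.91), Gpihbp1 (0.92), Vwa1 (1.0) and Kcne3 (1.65). Other genes with a higher difference were Lyn (0.47), Shmt2 (0.54), Plau (1.0), Myom2 (1.37), Clec1b (1.71), Xirp2 (1.82), Rsad2 (1.82) and Slc1a2 (1.83).

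Against the loss of Dll4 at E12.5, where driver, stage and tissue also differ, the difference was lower for Mt2 (-3.22), Mt1 (-2.20), Bhlhe40 (-1.54), Aqp4 (-0.75) and Tpgs1 (-0.63), and higher for Rrs1 (0.75), Mthfd2 (0.75) and Xirp2 (2.18). For Dll4 the value was 1.91, and no test is read for it. It is partly set by the choice of E12.5 samples, some of which the study dropped partly for their Dll4 level. Tpgs1 and Xirp2 differed from both experiments.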

How the results depend on the processing

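The 131 rises and 29 falls became 1 and 4 without the mean-variance trend, 512 and 279 with array quality weights, 271 and 75 with DESeq2 and 1 and 3 at an adjusted p under 0.01. They were 158 and 28 with edgeR's quasi-likelihood test on the recovered reads, and between 97 and 172 rises and 23 and 43 falls in the other settings that kept all libraries. Leaving out 1 library at a time gave 2 to 421 rises and 4 to 153 falls, with the fewest without mutant library 2 and the most without mutant library 3. Of the 106 named genes that were called, 104 lost the call without the trend, 104 without mutant library 2, 98 without WT library 3, 72, 70, 57 and 44 without WT library 2, WT library 1, WT library 4 and mutant library 4, and 1 without mutant library 3, and none changed direction. The log2 fold change of Dll4 passed the threshold with quality weights (-1.35), a pseudocount of 1 (-1.09), the upper 75% of genes by mean (-1.12), limma voom (-1.24) and the replicate block (-1.09, adjusted p = 0.0401), and ranged from -1.52 to -0.87 with 1 library left out. For the difference from the gain of function, 34 higher and 10 lower became 0 and 1 without the trend and ranged over 1 to 334 and 1 to 127 with 1 library left out. For the difference from the E12.5 loss, 17 and 22 became 4 and 14 without the trend and ranged over 7 to 112 and 11 to 66. The causes were not tested.

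Same-numbered mutant and WT libraries did not deviate together (correlations of 0.0415, -0.0559 and 0.124 for numbers 2, 3 and 4), so the numbers were not taken as pairs. With the replicate block 135 genes rose and 43 fell, 95 and 22 of them among the 131 and 29. Depth limits the genes under about 1 normalized count, where 1 read is worth 0.0677 to 0.123.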
